A study of Mus musculus with 42 samples.

Results

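Sonic hedgehog signalling in newborn lung was followed through 7 of its core genes: the ligand gene Shh, the receptor gene Ptch1, the signal transducer gene Smo, the transcription factor genes Gli1, Gli2 and Gli3, and Hhip, which encodes a membrane protein that binds and sequesters the ligand. They were read as the probe sets annotated to exactly 1 of these symbols, and each gene was represented by the probe set with the highest mean over all arrays, which gave 7 of the 18194 genes tested. In the developing lung, epithelial cells secrete the SHH protein and the surrounding mesenchyme responds to it. PTCH1 holds SMO inactive until it binds ligand, after which SMO lets the GLI proteins switch on target genes. Gli1, Ptch1 and Hhip are themselves classical targets, so their transcripts are widely used as readouts of pathway activity, whereas GLI3 acts mainly as a repressor in the absence of ligand.

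Each of 42 Affymetrix arrays was hybridised with RNA from the homogenised lung of 1 newborn mouse, 3 mice in each of 14 groups. The knockout (KO) mice carried the homozygous deletion labelled Nrf-/-, the gene Nfe2l2 that encodes the antioxidant transcription factor NRF2, and the wild-type (WT) mice were labelled Nrf+/+. In both genotypes, pups with foster dams either breathed near-pure oxygen (hyperoxia, O2) from P1 onward and were taken after 1, 2 or 3 days, at P2, P3 and P4, or stayed in room air and were taken at P1 (the day of birth), P2, P3 or P4. The labels give no strain, no sex and no litter, and the deletion was in the whole animal. All values are log2 array signals, so a difference of 1 is a factor of 2 in signal. Signal levels of different genes were not set against each other, and probe sets of the same gene were ordered by mean signal. A gene was called changed when its limma adjusted p was under 0.05, with adjustment over all genes tested.

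The Nfe2l2 probe set averaged 4.68 ± 0.29 in KO lungs and 10.86 ± 0.28 in WT lungs (SD, n = 21 each), and the genotypes did not overlap. The array medians lay between 6.31 and 6.40, and 34 of 42 arrays correlated best with an array of their own group. Marker genes of other organs were uneven between the genotypes. A score was the mean, over the genes of a marker list, of the log2 deviation from each gene's mean over all arrays. Scores of liver, heart muscle, skeletal muscle or thymocyte markers stood over 2 log2 units above the median array on 3 of 21 KO arrays and 12 of 21 WT arrays. Among these were all 3 arrays of WT air P2. In liver markers 10 of 10 genes were called lower in KO than in WT air lungs, and the liver score ranged from -0.15 to 0.75 in KO air P1 lungs and from 0.74 to 5.46 in WT air P1 lungs. Results that touch these arrays were recomputed without them where a group retains any array, and with the 4 scores as covariates. Without them WT air P1, WT air P3, WT O2 P4 and KO air P2 each held 1 array, which the fit assumed to vary like the arrays of the other groups. A value described below as resting on 1 array has this limit, whether its call was kept or lost. In whole-lung RNA, fewer cells of a type and less RNA per cell cannot be told apart.

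The probe sets and their genes, with coordinates on mouse assembly GRCm38.p6 as given by RefSeq, were as follows. Shh was read by 1436869_at and lies at chr5:28456840-28467101, Ptch1 by 1428853_at at chr13:63508328-63573460, and Smo by 1427049_s_at at chr6:29735497-29761366. Gli1 was read by its only probe set, 1449058_at, at chr10:127329882-127341579, Gli2 by 1459211_at at chr1:118834061-119054405, and Gli3 by 1456067_at at chr13:15463723-15730026. Hhip was read by 1437933_at, at chr8:79965850-80058060. The arrays use labelling primed from the 3' end of the transcript, and isoforms were not separated here. Whether probe sets of the same gene read different forms of its transcript was not tested.

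Ptch1, Smo, Gli3 and Hhip were the 4 members that were lower after 3 days of hyperoxia in both genotypes. The 250 bases before a transcription start listed for each are shown, to compare the promoters of genes lower in the same comparison. They come from RefSeq's promoter table for GRCm38.p6, which matched 5 of the 7 members, all but Shh and Gli1. Each runs 5' to 3' on the gene's own strand. Capitals mark the GC box GGGCGG, the core of SP1 family sites, on either strand; this motif was added to the search after the values were seen.
Ptch1: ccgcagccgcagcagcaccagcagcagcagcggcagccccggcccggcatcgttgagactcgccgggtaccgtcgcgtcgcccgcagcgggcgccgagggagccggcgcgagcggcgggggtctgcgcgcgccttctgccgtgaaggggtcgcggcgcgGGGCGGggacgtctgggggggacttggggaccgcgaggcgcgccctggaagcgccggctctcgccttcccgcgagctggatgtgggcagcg
Smo: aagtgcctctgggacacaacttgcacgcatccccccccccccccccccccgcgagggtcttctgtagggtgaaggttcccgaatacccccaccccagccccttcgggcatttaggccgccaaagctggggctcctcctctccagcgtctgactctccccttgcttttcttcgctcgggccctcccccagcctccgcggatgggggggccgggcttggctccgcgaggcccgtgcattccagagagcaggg
Gli3: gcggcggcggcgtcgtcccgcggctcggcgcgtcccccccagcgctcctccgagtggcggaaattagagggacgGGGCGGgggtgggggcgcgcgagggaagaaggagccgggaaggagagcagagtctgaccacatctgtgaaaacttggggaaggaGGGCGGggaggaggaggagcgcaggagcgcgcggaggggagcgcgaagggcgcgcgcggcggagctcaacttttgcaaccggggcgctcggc
Hhip: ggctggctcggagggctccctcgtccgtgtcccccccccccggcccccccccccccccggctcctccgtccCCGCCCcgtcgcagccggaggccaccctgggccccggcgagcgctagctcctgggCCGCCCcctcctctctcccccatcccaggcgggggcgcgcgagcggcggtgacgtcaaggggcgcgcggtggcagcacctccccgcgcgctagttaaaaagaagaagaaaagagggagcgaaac
The Ptch1 stretch is chr13:63565736-63565985 on the minus strand, the Smo stretch chr6:29735247-29735496 on the plus strand, the Gli3 stretch chr13:15463473-15463722 on the plus strand and the Hhip stretch chr8:80058009-80058258 on the minus strand. The GLI consensus GACCACCCA was found in 0 of 5 member promoters on either strand, as in all but 0.225% of 32851 promoters of the same length. Allowing 1 mismatch gave 0 of 5 members, against 5.79% of all promoters. The core of the NRF2 element, TGANNNNGC, was also found in 0 of 5 members, and in 35.2% of all promoters. The GC box was present in 4 of 5 members, Smo being the exception, and in 32.7% of all promoters, with 1 match in the Ptch1 stretch and 2 each in the Gli3 and Hhip stretches. The 5 windows were rich in G and C, from 67.2% in Gli2 to 78.4% in Ptch1. All promoters were not matched for this share, which affects how often each motif occurs. Whether the members differ from promoters of like composition was not tested. The Ptch1 stretch lies within the gene interval given above, so the start it precedes is not the outermost one. The Gli2 window that was searched, chr1:119053620-119053869, also lies within its gene interval. The Hhip stretch overlaps the 5' end of its gene interval. These letters say what lies in these windows and nothing about sites elsewhere in the genes, including other starts.

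Across the 14 groups, Ptch1 had the widest spread of group means, 1.48 log2 units, followed by Gli1 at 1.24, and Shh had the narrowest, 0.52. Ptch1 was highest in KO lungs after 1 day of hyperoxia, with 12.24 ± 0.07, and lowest in WT lungs after 3 days of hyperoxia, with 10.75 ± 0.25 (SD, n = 3 each here and below). Gli1 had the same extremes, with 8.76 ± 0.16 in KO lungs after 1 day of hyperoxia and 7.52 ± 0.35 in WT lungs after 3 days. For Shh the top and bottom means were 12.13 ± 0.16 in KO air P4 and 11.61 ± 0.32 in WT lungs after 3 days of hyperoxia.

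Smo was highest in KO air P4 lungs at 10.49 ± 0.14 and lowest in WT air P1 lungs at 9.65 ± 0.22. Gli2 was highest in WT air P3 at 9.31 ± 0.15 and lowest in KO air P2 at 8.66 ± 0.27. Gli3 was also highest in WT air P3, at 9.07 ± 0.02, but lowest in KO lungs after 3 days of hyperoxia, at 8.23 ± 0.06. Hhip was highest in KO lungs after 1 day of hyperoxia at 10.90 ± 0.13, and lowest in WT air P2 at 9.997 ± 0.34. Most neighbours in these orders cannot be ranked. Of the 13 neighbouring pairs of groups per gene, those whose 3 against 3 arrays did not overlap numbered 2 for Ptch1, Smo and Gli3, 1 for Hhip and 0 for Shh, Gli1 and Gli2. The plot of all array values shows this order for each gene.

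**Figure D1:**
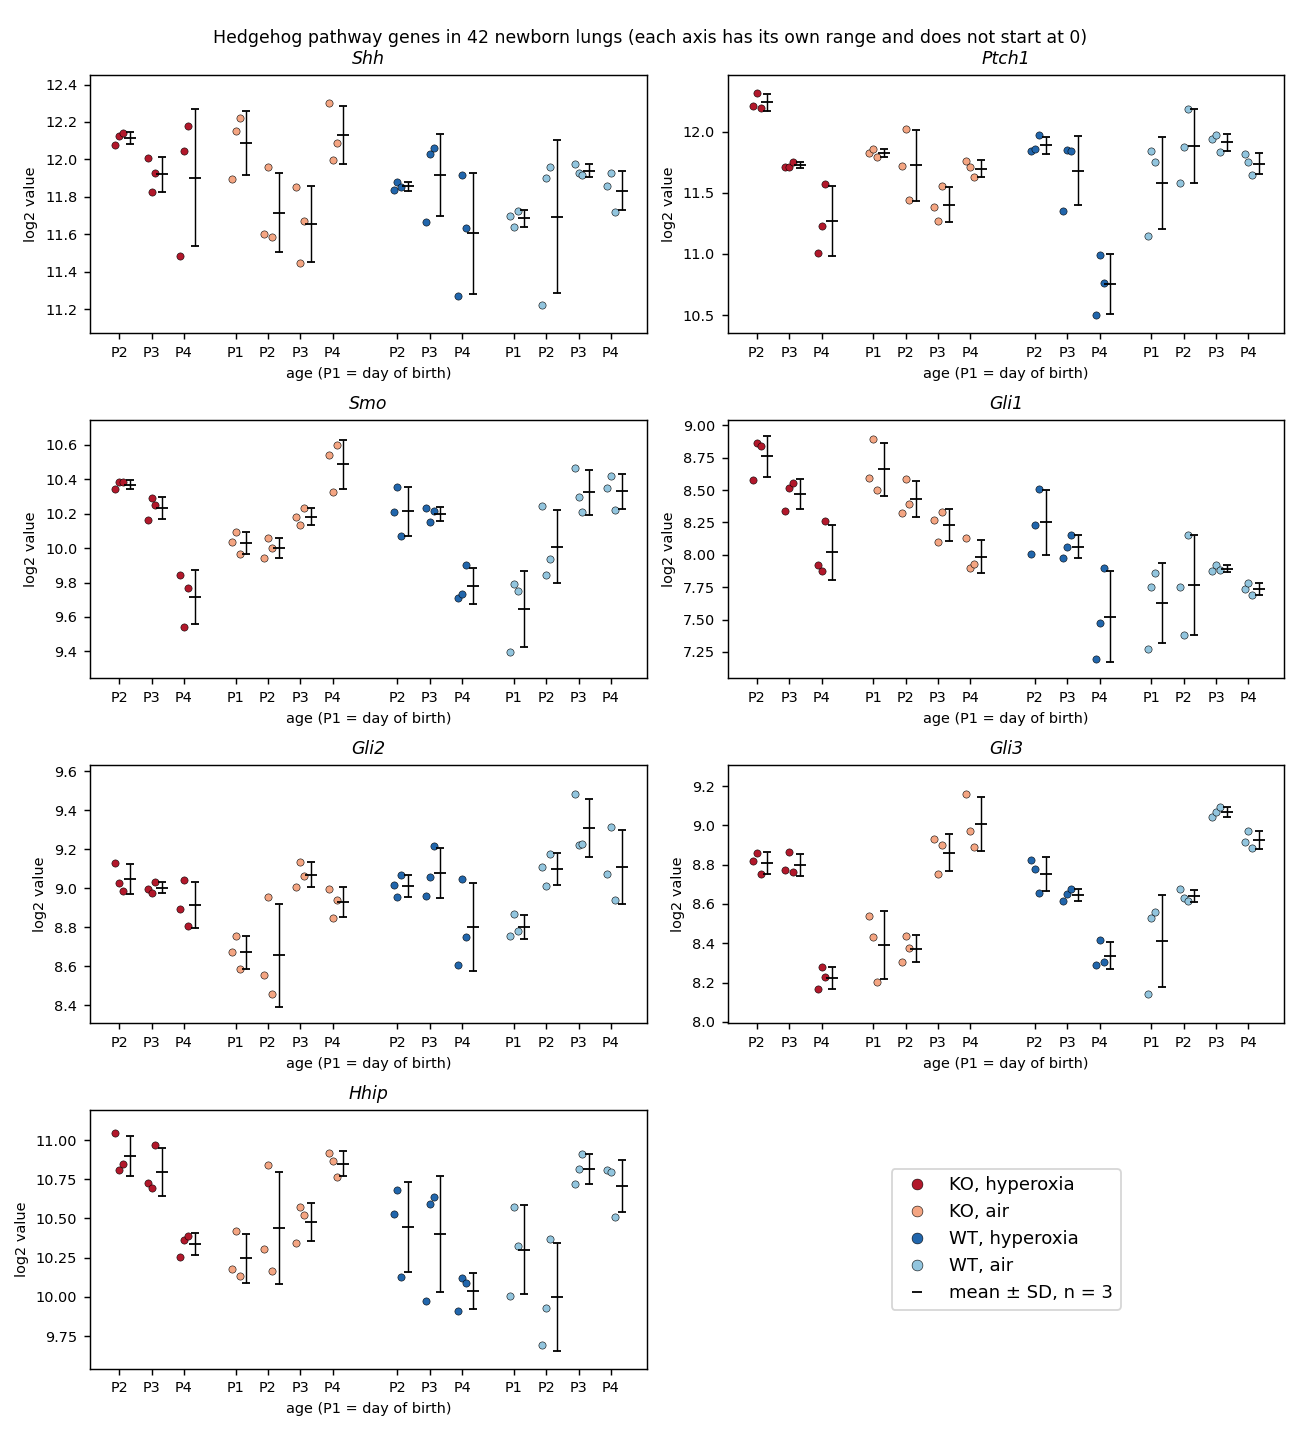
Log2 value of each Hedgehog gene (vertical axis, own range per gene) on each of the 42 arrays, by age within KO hyperoxia, KO air, WT hyperoxia and WT air; dots are single lungs and bars the mean ± SD of 3. The 3 lungs of WT hyperoxia P4 had the lowest mean for Shh, Ptch1 and Gli1, and the KO air groups stood above the WT air groups of the same age for Gli1.

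The first comparison asked whether the pathway differed between KO and WT lungs in room air. The transcript of Gli1, read by its only probe set, was higher in KO lungs, while that of the transducing factor gene Gli2 was lower. Ptch1 and Hhip, also used as readouts, were not called on their brightest probe sets. Whether pathway activity differed was not tested. Averaged over P1 to P4, 1 member was called higher and 1 lower, where 29% of all genes were called in this comparison. At P1 the 3 KO lungs read 8.59, 8.89 and 8.50 for Gli1, against 7.27, 7.75 and 7.86 in WT lungs. At P2 they read 8.32, 8.59 and 8.39 in KO lungs, against 7.76, 7.38 and 8.16 in WT lungs. At both ages every KO lung was above every WT lung.

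At P3 Gli1 read 8.27, 8.10 and 8.33 in KO lungs, against 7.88, 7.92 and 7.88 in WT lungs, and at P4 it read 8.13, 7.90 and 7.93 in KO lungs, against 7.73, 7.78 and 7.69 in WT lungs. The genotypes again did not overlap, but they stood closer, as KO lungs were lower at P4 than at P1. Arrays of the genotypes also did not overlap for 27.6% of all genes at P1, 20.3% at P2, 38.9% at P3 and 19% at P4. Over the 4 ages Gli1 was 0.57 ± 0.08 higher in KO lungs, 1.49-fold (limma adjusted p = 5.28e-06; SE of the fit, as for every difference below). By age the difference was 1.03 ± 0.17 at P1 (limma adjusted p = 0.00024), 0.67 ± 0.17 at P2 (limma adjusted p = 0.00664), 0.34 ± 0.17 at P3 (limma adjusted p = 0.156) and 0.25 ± 0.17 at P4 (limma adjusted p = 0.603). Of all genes, 6.78% were called at P1, 13.1% at P2, 21.6% at P3 and 0.726% at P4.

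With the 4 other-tissue scores as covariates the mean difference in Gli1 was 0.55 (limma adjusted p = 0.00511), and without the arrays high in those markers it was 0.80 at P1 (limma adjusted p = 0.0155), 0.42 at P3 and 0.23 at P4. The values at P1 and P3 rest on 1 WT array each. The mean could not be computed without those arrays, since they include all of WT air P2. The call at P2 was lost with the covariates (0.69, limma adjusted p = 0.237), with array weights (0.47, limma adjusted p = 0.112), when only the arrays of P2 were fitted (limma adjusted p = 0.326) and without WT air P2 replicate 2 (0.48, limma adjusted p = 0.0727).

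Gli2, which encodes the main activator that relays the signal from SMO, ranged from 8.46 to 9.14 over the 12 KO air lungs with a median of 8.89, and from 8.75 to 9.48 over the 12 WT air lungs with a median of 9.09. The ranges overlapped. Its mean difference was -0.25 ± 0.05 (limma adjusted p = 0.000835), and -0.24 with the tissue covariates (limma adjusted p = 0.0142). The other Gli2 probe set gave 0.01 (limma adjusted p = 0.932), so the lower value rests on the brighter probe set. The remaining members were not called on their brightest probe sets, with differences of 0.11 for Shh, -0.11 for Ptch1, 0.10 for Smo, -0.10 for Gli3 and 0.05 for Hhip. Other probe sets gave calls for 2 of them. Smo was called higher in KO lungs on 1427048_at, by 0.31 ± 0.05 (limma adjusted p = 1.33e-05 over all probe sets), whose mean over all arrays, 9.89, was close to the 10.11 of the probe set used. Ptch1 was called higher on the dimmer 1450824_at, by 0.27 ± 0.06 (limma adjusted p = 0.000628 over all probe sets), opposite in sign to its brightest probe set. Both calls were kept with the tissue covariates (0.24 for Smo and 0.26 for Ptch1, limma adjusted p = 0.0265 and 0.0228) and with each array left out in turn.

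Single ages added further calls. Smo was 0.39 ± 0.10 higher in KO lungs at P1 (limma adjusted p = 0.0173), and 0.53 ± 0.10 higher on 1427048_at (limma adjusted p = 0.00109 over all probe sets), which was also called at P4 (0.40 ± 0.10, limma adjusted p = 0.0443 over all probe sets). On the brightest probe set the P1 call was lost without WT air P1 replicate 1 (0.26), KO air P1 replicate 1 (limma adjusted p = 0.0547) or KO air P1 replicate 2 (limma adjusted p = 0.0778), and without the arrays high in other tissues (0.28, limma adjusted p = 0.229, resting on 1 WT array). Gli2 at P2 was -0.44 ± 0.11 (limma adjusted p = 0.00572), a call kept in 11 of 15 alternatives. Among the losses were leaving out KO air P2 replicate 3 (-0.34, limma adjusted p = 0.0512) and the other Gli2 probe set (-0.16). Ptch1 at P3 was -0.51 ± 0.16 (limma adjusted p = 0.0216), with 11.39, 11.27 and 11.56 in KO lungs, against 11.94, 11.97 and 11.83 in WT lungs. That call was lost without any of WT air P3 replicates 1 or 2 and KO air P3 replicates 1 or 2 (limma adjusted p from 0.0538 to 0.0910), and another Ptch1 probe set ran the other way at 0.15. Gli3 at P2 was -0.27 ± 0.08 (limma adjusted p = 0.0319) and lost its call without any of WT air P2 replicates 1, 2 and 3 or KO air P2 replicates 1 and 3 (limma adjusted p from 0.0506 to 0.133). Of 3 Ptch1 probe sets, 1 was called higher and 1 lower in KO lungs at P2, with values from -0.47 to 0.44. Of 4 Hhip probe sets, 1 was called higher at P2, with values from 0.43 to 0.65. All 3 WT air P2 arrays were high in other tissues, so no P2 difference could be recomputed without them.

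In hyperoxia the same question gave 3 members called higher in KO lungs and 0 lower, where 12.5% of all genes were called. Of those, 50.5% were higher in KO lungs, and 36.7% with cyclic loess scaling. The members were Gli1, Ptch1 and Hhip, the 3 genes that are both pathway components and pathway targets. Whether pathway activity differed in hyperoxia was not tested either. Averaged over 1 to 3 days, Gli1 was 0.47 ± 0.10 higher in KO lungs, 1.39-fold (limma adjusted p = 0.000986). Its values ranged from 7.88 to 8.86 over the 9 KO lungs with a median of 8.52, and from 7.20 to 8.51 over the 9 WT lungs with a median of 8.01. The ranges of the genotypes overlapped. After 2 days of exposure Gli1 read 8.34, 8.52 and 8.56 in KO lungs, against 7.98, 8.06 and 8.15 in WT lungs, without overlap, as for 29.4% of all genes on that day.

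Hhip, the decoy receptor, was 0.38 ± 0.10 higher in KO lungs in hyperoxia, 1.30-fold (limma adjusted p = 0.00969), with 10.26 to 11.04 over KO lungs (median 10.72) and 9.91 to 10.68 over WT lungs (median 10.13). After 3 days the genotypes did not overlap, as for 30.2% of all genes, with 10.26, 10.36 and 10.39 in KO lungs, against 9.91, 10.12 and 10.09 in WT lungs. All 4 Hhip probe sets were called higher, with differences between 0.38 and 0.55. Ptch1 was 0.30 ± 0.09 higher (limma adjusted p = 0.0293), and 0.51 ± 0.16 higher after 3 days alone (limma adjusted p = 0.0388), where 9.82% of genes were called. At that time it read 11.01, 11.23 and 11.57 in KO lungs, against 10.50, 10.99 and 10.77 in WT lungs. Every KO value was above every WT value, although the lowest KO and the highest WT value were close.

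Leaving out the arrays high in other tissues, Gli1 was 0.52 higher over the 3 days (limma adjusted p = 0.000358) and Hhip 0.23 higher (limma adjusted p = 0.0251), while Ptch1 was no longer called (0.18, limma adjusted p = 0.0893); WT O2 P4 then held 1 array. The Ptch1 mean also lost its call with the tissue covariates (0.22, limma adjusted p = 0.0517) and without WT O2 P2 replicate 1, WT O2 P3 replicate 1, WT O2 P4 replicate 1, KO O2 P2 replicate 2 or KO O2 P4 replicate 3 (limma adjusted p from 0.0541 to 0.0798). At 3 days alone it was lost without WT O2 P4 replicates 1 or 3 or KO O2 P4 replicates 2 or 3 (limma adjusted p from 0.0838 to 0.185), and was 0.27 without the arrays high in other tissues (limma adjusted p = 0.297, resting on 1 WT array). Taken by day, Gli1 was 0.51 ± 0.17 higher in KO lungs after 1 day (limma adjusted p = 0.0912; 2.96% of genes called), 0.41 ± 0.17 after 2 days (limma adjusted p = 0.16; 5.13% called) and 0.50 ± 0.17 after 3 days (limma adjusted p = 0.0524). Shh, Smo, Gli2 and Gli3 were not called on their brightest probe sets, with mean differences of 0.19, 0.04, 0.02 and 0.03. On 1427048_at Smo was called higher in KO lungs in hyperoxia too, by 0.26 ± 0.06 (limma adjusted p = 0.00154 over all probe sets), and by 0.24 without the arrays high in other tissues (limma adjusted p = 0.00967). The Ptch1 probe set 1450824_at gave 0.37 ± 0.07 (limma adjusted p = 0.000129 over all probe sets) and 0.36 without those arrays (limma adjusted p = 0.003). Of the other 3 Hhip probe sets, 1 was still called without them (0.41, limma adjusted p = 0.00303), and the remaining values were 0.27 (limma adjusted p = 0.123) and 0.25 (limma adjusted p = 0.0586). Endothelial marker genes, 5 of 8 of which were called higher in KO lungs in hyperoxia with a list median of 0.25, moved with this comparison, and their part in the result was not tested.

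**Figure D2:**
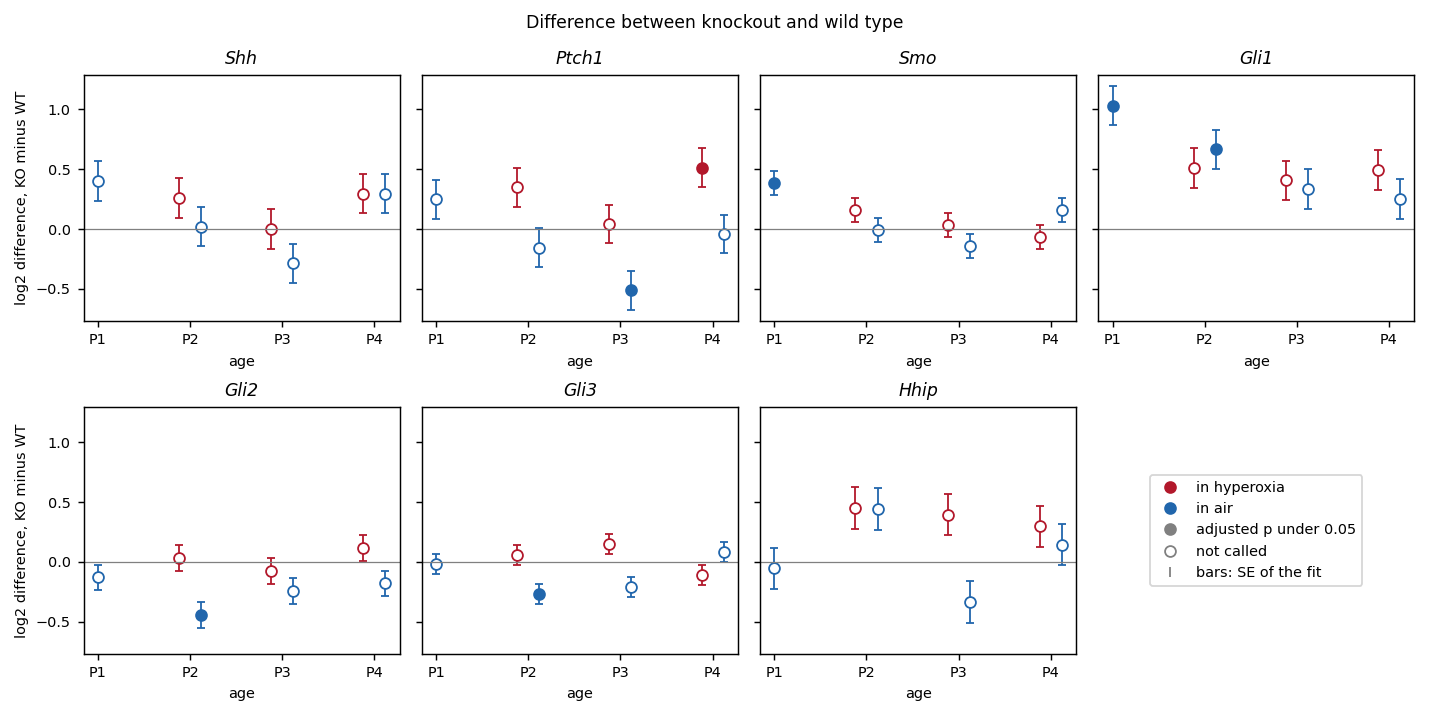
Log2 difference between KO and WT lungs (vertical axis) at each age for each Hedgehog gene, in hyperoxia (red) and in air (blue); bars are the SE of the fit and filled dots have a limma adjusted p under 0.05. Gli1 lay above 0 in every pair of groups, from 0.25 to 1.03, while Gli2 lay below 0 at all 4 ages in air.

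The second comparison followed the genes from birth to P4 in room air. Smo and Gli3 were higher at P4 than at P1 in both genotypes, Hhip was called higher in KO lungs, Gli2 was called higher in WT lungs on its brighter probe set and in KO lungs on the other, and Gli1 was lower at P4 than at P1 in KO lungs. In KO lungs, 3 members were called higher and 1 lower, where 21.6% of all genes were called. In WT lungs, 3 were called higher and 0 lower, where 22.4% were called. The ligand gene Shh and the receptor gene Ptch1 were not called at P4 in either genotype.

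In KO lungs Smo read 10.54, 10.33 and 10.60 at P4, against 10.04, 10.09 and 9.97 at P1. In WT lungs it read 10.35, 10.42 and 10.22 at P4, against 9.39, 9.79 and 9.75 at P1. The ages did not overlap in either genotype, and the differences were 0.46 ± 0.10 in KO lungs (limma adjusted p = 0.00114) and 0.68 ± 0.10 in WT lungs (limma adjusted p = 5.06e-06). Gli3, whose protein is cut into a repressor when ligand is absent, read 9.16, 8.97 and 8.89 at P4 in KO lungs, against 8.54, 8.43 and 8.20 at P1. In WT lungs Gli3 read 8.92, 8.97 and 8.88 at P4, against 8.14, 8.53 and 8.56 at P1. It was 0.62 ± 0.08 higher at P4 in KO lungs (limma adjusted p = 2.29e-06) and 0.51 ± 0.08 higher in WT lungs (limma adjusted p = 2.71e-05), again without overlap; arrays did not overlap for 35.5% of all genes in KO lungs and 38.6% in WT lungs.

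Gli1 in KO lungs stepped through means of 8.66 ± 0.21, 8.43 ± 0.14, 8.23 ± 0.12 and 7.99 ± 0.12 from P1 to P4, a difference of -0.67 ± 0.17 between the ends (limma adjusted p = 0.00316). In WT lungs the means were 7.63 ± 0.31, 7.76 ± 0.39, 7.89 ± 0.02 and 7.73 ± 0.05, with a P4 minus P1 difference of 0.11 ± 0.17 (limma adjusted p = 0.747). The difference between these changes was -0.78 ± 0.23 and was not called (limma adjusted p = 0.258), in a contrast where 5 of 18194 genes, 0.0275%, were called.

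Between P1 and P3 the changes of Shh, Ptch1, Smo and Gli1 differed between the genotypes, with differences of -0.69, -0.76, -0.53 and -0.70, where 12.6% of all genes were called. Each of these calls was lost without the arrays high in other tissues, where WT air P1 and WT air P3 rest on 1 array each. Over all probe sets 1 of 2 was called for Shh, 1 of 3 for Ptch1 and 2 of 3 for Smo.

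Hhip was 0.60 ± 0.17 higher at P4 in KO lungs (limma adjusted p = 0.0112) and 0.41 ± 0.17 higher in WT lungs (limma adjusted p = 0.0971). Gli2 was 0.26 ± 0.11 higher in KO lungs (limma adjusted p = 0.0871) and 0.31 ± 0.11 in WT lungs (limma adjusted p = 0.0364). Its other probe set gave the opposite split, 0.45 ± 0.10 and called in KO lungs (limma adjusted p = 0.00084 over all probe sets) and 0.22 ± 0.10 and not called in WT lungs (limma adjusted p = 0.119). The WT call of Gli2 was lost without WT air P1 replicates 1 or 3 or WT air P4 replicates 1 or 2 (limma adjusted p from 0.0626 to 0.251). Without the arrays high in other tissues it was 0.41 (limma adjusted p = 0.0247), resting on 1 array at P1. At P3 against P1, Gli2 and Gli3 were called higher in both genotypes, by 0.40 and 0.47 in KO lungs and by 0.51 and 0.66 in WT lungs, where 12.8% of genes were called in KO lungs and 20.6% in WT lungs. The KO call of Gli2 was lost without KO air P1 replicate 3 (limma adjusted p = 0.0605) or KO air P3 replicate 2 (limma adjusted p = 0.0574). Smo (0.68) and Hhip (0.52) were also called at P3 in WT lungs, Hhip not without WT air P1 replicates 1 or 3 or WT air P3 replicates 2 or 3 (limma adjusted p from 0.0658 to 0.201). At P2 the 1 call on the brightest probe sets of the members in either genotype was Smo in WT lungs (0.36 ± 0.10, limma adjusted p = 0.0126), which was lost without WT air P1 replicate 1 or WT air P2 replicate 1 (0.24 each). Over all probe sets 2 of 3 were called higher in WT lungs for Smo, with values from -0.12 to 0.36. For Ptch1 1 of 3 was called higher there, with values from -0.18 to 0.58. All 3 WT air P2 arrays were high in other tissues, so these WT values could not be recomputed without them. Of all genes, 13.3% were called at P2 in KO lungs and 14.5% in WT lungs. Mitosis marker genes rose over the same days, 7 of 7 in KO lungs with a list median of 2.85 and 7 of 7 in WT lungs with a median of 2.86, and fibroblast markers were called higher for 2 of 8 in KO lungs and 3 of 8 in WT lungs. Myofibroblast and smooth muscle markers were called higher for 4 of 8 in each genotype, with scores of -0.06 to 0.10 at P4 and -0.50 to -0.23 at P1 in KO lungs, and of 0.02 to 0.09 at P4 and -0.50 to -0.44 at P1 in WT lungs. Alveolar type 1 markers were called lower for 6 of 8 in KO lungs and 7 of 8 in WT lungs, with scores of -0.21 to -0.05 at P4 and 0.31 to 0.51 at P1 in KO lungs, and of -0.34 to -0.18 at P4 and 0.30 to 0.42 at P1 in WT lungs. Alveolar type 2 markers were called lower for 6 of 7 in each genotype, with scores of -0.15 to -0.09 at P4 and 0.41 to 0.53 at P1 in KO lungs, and of -0.26 to -0.09 at P4 and 0.34 to 0.48 at P1 in WT lungs. The part of these cell types in the results was not tested.

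The third comparison set hyperoxia against air of the same age. After 3 days the receptor gene Ptch1, the transducer gene Smo, the repressor gene Gli3 and the ligand-binding Hhip were lower in both genotypes, while Shh and Gli1 were called in neither. Of the 7 members, 4 were called lower in KO lungs, where 31.7% of all genes were called and 14.7% were called lower. In WT lungs 5 were called lower, the fifth being Gli2, where 27.5% were called and 12.5% were called lower. No member was called higher.

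Ptch1 read 10.50, 10.99 and 10.77 in WT lungs after 3 days of hyperoxia, against 11.82, 11.75 and 11.65 in WT lungs in air. Every exposed lung was below every air lung, with a difference of -0.98 ± 0.16, 1.98-fold lower (limma adjusted p = 1.71e-05). In KO lungs Ptch1 read 11.01, 11.23 and 11.57 after hyperoxia, against 11.76, 11.71 and 11.62 in air. The groups did not overlap here either, but the difference was smaller, -0.43 ± 0.16 (limma adjusted p = 0.0415), and lost its call without any single array of KO air P4 or without KO O2 P4 replicate 1 or 2 (limma adjusted p from 0.0578 to 0.229). The difference between the genotypes was 0.56 ± 0.23, with a 95% interval of 0.09 to 1.02, and was not called (limma adjusted p = 0.240).

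Smo read 9.84, 9.54 and 9.77 in KO lungs after hyperoxia, against 10.54, 10.33 and 10.60 in KO lungs in air. In WT lungs Smo read 9.71, 9.73 and 9.90 after hyperoxia, against 10.35, 10.42 and 10.22 in air. In both genotypes the exposed lungs lay below all air lungs, with differences of -0.77 ± 0.10 in KO lungs (limma adjusted p = 4.08e-07) and -0.55 ± 0.10 in WT lungs (limma adjusted p = 7.62e-05). At P1 the means of Smo had been 10.03 in KO lungs and 9.65 in WT lungs.

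Gli3 read 8.17, 8.28 and 8.23 in KO lungs after hyperoxia, against 9.16, 8.97 and 8.89 in KO lungs in air, and 8.29, 8.42 and 8.31 in WT lungs after hyperoxia, against 8.92, 8.97 and 8.88 in WT lungs in air. Within a group the lungs differed little, and the groups lay well apart. The differences were -0.78 ± 0.08 in KO lungs (limma adjusted p = 1.41e-08), 1.72-fold lower, and -0.59 ± 0.08 in WT lungs (limma adjusted p = 2.29e-06), 1.5-fold lower. All 3 Gli3 probe sets were called lower in both genotypes.

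Hhip read 10.26, 10.36 and 10.39 in KO lungs after hyperoxia, against 10.92, 10.87 and 10.77 in KO lungs in air. In WT lungs it read 9.91, 10.12 and 10.09 after hyperoxia, against 10.81, 10.80 and 10.51 in air. The groups did not overlap in either genotype, as for 41.4% of all genes in KO lungs and 44.7% in WT lungs. The differences were -0.52 ± 0.17 in KO lungs (limma adjusted p = 0.0216) and -0.67 ± 0.17 in WT lungs (limma adjusted p = 0.0036). The KO call was lost without KO air P4 replicates 1 or 2 or KO O2 P4 replicate 1 (limma adjusted p from 0.0523 to 0.0715), and all 4 Hhip probe sets were called lower in WT lungs. Gli2 was -0.01 ± 0.11 in KO lungs (limma adjusted p = 0.941) and -0.31 ± 0.11 in WT lungs (limma adjusted p = 0.0306); the WT call was lost without WT air P4 replicates 1 or 2 or WT O2 P4 replicates 1 or 3 (limma adjusted p from 0.0520 to 0.216) and without the arrays high in other tissues (-0.15, limma adjusted p = 0.517, resting on 1 exposed array).

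Shh, the ligand gene, read 11.49, 12.04 and 12.18 in KO lungs after 3 days of hyperoxia, against 12.30, 12.00 and 12.09 in KO lungs in air, and 11.27, 11.92 and 11.63 in WT lungs after hyperoxia, against 11.86, 11.93 and 11.72 in WT lungs in air. The groups overlapped, and the difference was -0.23 ± 0.17 in both genotypes, with a 95% interval of -0.57 to 0.11. Gli1 differed by 0.03 ± 0.17 in KO lungs (95% interval -0.30 to 0.37) and by -0.21 ± 0.17 in WT lungs (-0.55 to 0.13). The WT differences without the arrays high in other tissues were -0.79 for Ptch1, -0.65 for Smo, -0.53 for Gli3 and -0.68 for Hhip, each called. The exposed WT group then held replicate 2 alone, so these values rest on 1 array. No such array was in KO air P4 or KO O2 P4.

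Marker genes of other kinds moved with this comparison. Mitosis genes were called lower for 7 of 7 in KO lungs (list median -1.39) and 4 of 7 in WT lungs (-0.84). Their score ranged from -0.91 to -0.02 in KO lungs after 3 days of hyperoxia and from 0.70 to 1.05 in KO lungs in air, and from -0.09 to 0.06 in exposed WT lungs and from 0.83 to 0.92 in WT lungs in air. Airway epithelium markers were called lower for 4 of 7 in each genotype, with scores of -1.62 to -0.25 in exposed KO lungs and -0.41 to -0.35 in KO air lungs, and of -1.05 to -0.41 in exposed WT lungs and -0.16 to -0.04 in WT air lungs. Fibroblast markers, of the cells that receive the signal, were called lower for 2 of 8 in KO lungs and 3 of 8 in WT lungs, with scores of -0.55 to 0.67 in exposed KO lungs and -0.05 to 0.07 in KO air lungs, and of -0.45 to -0.13 in exposed WT lungs and 0.34 to 0.67 in WT air lungs. Endothelial markers were called lower for 4 of 8 in KO lungs and 3 of 8, with 1 higher, in WT lungs. Alveolar type 1 markers were called higher for 3 of 8, with 1 lower, in KO lungs and 5 of 8 in WT lungs. The part of these cell types in the fall of Ptch1, Smo, Gli3 and Hhip was not tested.

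**Figure D3:**
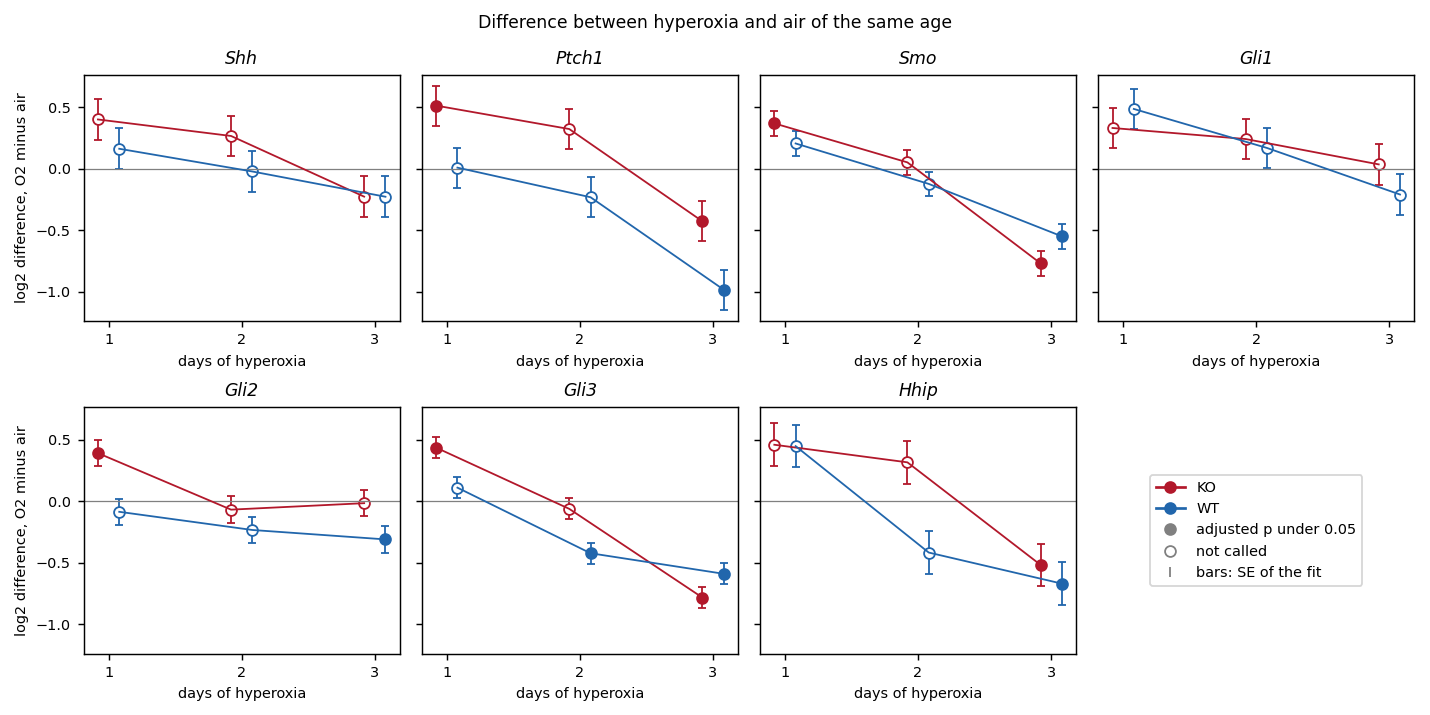
Log2 difference between hyperoxia and air of the same age (vertical axis) after 1, 2 and 3 days for each Hedgehog gene, in KO (red) and WT (blue) lungs; bars are the SE of the fit and filled dots have a limma adjusted p under 0.05. Ptch1, Smo, Gli3 and Hhip were called lower at 3 days in both genotypes, while Shh and Gli1 were called at no time.

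The shorter exposures looked different. After 1 day, Ptch1, Smo, Gli2 and Gli3 were called higher in KO lungs, by 0.51 ± 0.16, 0.37 ± 0.10, 0.39 ± 0.11 and 0.44 ± 0.08 (limma adjusted p between 0.00111 and 0.0418), where 9.06% of all genes were called. In WT lungs 0 members were called after 1 day, where 4.33% of genes were called by limma, and 2 members, Gli1 (0.48) and Hhip (0.45), had an unadjusted p under 0.05. Ptch1 read 12.20, 12.32 and 12.19 in KO lungs after 1 day of hyperoxia, against 11.72, 12.02 and 11.44 in KO lungs in air. The groups did not overlap, as for 21.1% of all genes. In KO air P2, replicates 1 and 3 had thymocyte scores of 3.36 and 2.52 above the median array, and replicate 3 also a liver score of 4.59, and thymocyte markers were called lower for 9 of 11 in this comparison. Without both arrays the differences were 0.22 for Ptch1, 0.31 for Smo, 0.09 for Gli2 and 0.37 for Gli3, none of them called, with air P2 resting on replicate 2 alone. Leaving out KO air P2 replicate 1 or 3 alone ended the calls of Ptch1, Smo and Gli2 (limma adjusted p from 0.0581 to 0.267). The calls of Ptch1 and Smo were also lost without any one KO O2 P2 array (limma adjusted p from 0.0502 to 0.139), and that of Gli2 without KO O2 P2 replicate 1 (limma adjusted p = 0.0972).

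After 2 days the 1 call was Gli3 in WT lungs, which read 8.62, 8.65 and 8.68 in hyperoxia, against 9.04, 9.07 and 9.09 in air. These groups did not overlap, as for 26.2% of all genes, and lay apart by several times their spread, with a difference of -0.42 ± 0.08 (limma adjusted p = 0.00205), where 5.4% of genes were called. In KO lungs Gli3 read 8.77, 8.86 and 8.76 in hyperoxia, against 8.93, 8.75 and 8.90 in air, a difference of -0.06 ± 0.08 (limma adjusted p = 0.751), where 12.6% of genes were called. The WT difference without the arrays high in other tissues was -0.38 (limma adjusted p = 0.154), resting on 1 air array, and the dimmest Gli3 probe set gave 0.00.

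Averaged over the 3 days, hyperoxia was called for 1 member in KO lungs, where 20.8% of genes were called, and for 4 in WT lungs, where 23.9% were called. In KO lungs this was Gli3 (-0.13 ± 0.05, limma adjusted p = 0.0471), a call lost without KO air P2 replicates 2 or 3, KO air P3 replicates 1 or 3, KO air P4 replicates 1 or 2, KO O2 P2 replicates 1 or 3, KO O2 P3 replicates 1 or 3 or KO O2 P4 replicates 1 or 3 (limma adjusted p from 0.0536 to 0.121). In WT lungs Ptch1 (-0.40 ± 0.09), Gli3 (-0.30 ± 0.05), Gli2 (-0.21 ± 0.06) and Smo (-0.16 ± 0.06) were called lower, Smo at limma adjusted p = 0.0477 and not without WT air P2 replicate 1, WT air P3 replicates 1 or 2, WT air P4 replicates 1 or 2, WT O2 P2 replicates 1 or 3, any array of WT O2 P3 or WT O2 P4 replicates 1 or 2 (limma adjusted p from 0.0555 to 0.136). Over all probe sets 2 of 3 were called for Ptch1 and 1 of 2 for Gli2. For Gli3 and Smo it was 1 of 3 each. The values nearest 0 were -0.029 for Ptch1, -0.051 for Gli2, -0.076 for Gli3 and -0.067 for Smo. All 3 WT air P2 arrays were high in other tissues, so this WT contrast could not be run without such arrays.

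Within hyperoxia, lungs taken after 3 days were set against lungs taken after 1 day, which differ in age as well as in exposure. Gli1 was lower after 3 days in both genotypes, with 7.92, 7.88 and 8.26 after 3 days, against 8.58, 8.86 and 8.84 after 1 day in KO lungs, and with 7.20, 7.47 and 7.90 after 3 days, against 8.01, 8.23 and 8.51 after 1 day in WT lungs. Neither pair of groups overlapped, as for 51% of all genes in KO lungs and 38.1% in WT lungs. The differences were -0.74 ± 0.17 in KO lungs (limma adjusted p = 0.000668) and -0.73 ± 0.17 in WT lungs (limma adjusted p = 0.0014). Ptch1 was -0.97 ± 0.16 in KO lungs and -1.13 ± 0.16 in WT lungs, the largest differences of any member in this comparison, with Smo at -0.65 and -0.43 and Gli3 at -0.58 and -0.42. All were called, with limma adjusted p up to 0.0017, although Gli3 in WT lungs lost its call without the arrays high in other tissues (-0.39, limma adjusted p = 0.0567, resting on 1 array at 3 days), and Hhip was called in KO lungs alone (-0.56 ± 0.17, limma adjusted p = 0.0112; lost without KO O2 P2 replicate 1, limma adjusted p = 0.0566). Of all genes, 35.6% were called in KO lungs and 21.6% in WT lungs. No member had a called genotype difference in this change, where 2.4% of all genes had one.

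Whether the response to hyperoxia differed between the genotypes was tested by the difference of the differences. After 3 days 0 of 7 members were called by limma, where 0.561% of all genes were called, and 1 member, Ptch1, had an unadjusted p under 0.05. Over the mean of 1 to 3 days Ptch1 was called, where 1.19% of genes were called: the effect of hyperoxia was 0.14 ± 0.09 in KO lungs and -0.40 ± 0.09 in WT lungs, a difference of 0.54 ± 0.13 (limma adjusted p = 0.0325). The sign was the same on each day, with 0.50, 0.55 and 0.56 after 1, 2 and 3 days, none of which was called alone, where 2.69%, 1.76% and 0.561% of genes were called. With the tissue covariates it was 0.50 (limma adjusted p = 0.0491). Leaving out 1 array ended the call for WT air P2 replicate 3, WT air P3 replicate 2, WT air P4 replicates 1 and 2, WT O2 P3 replicate 1, WT O2 P4 replicate 1, KO air P2 replicate 3, KO air P3 replicate 2, KO air P4 replicate 3, KO O2 P2 replicate 2, KO O2 P3 replicate 3 and KO O2 P4 replicate 3, with differences of 0.48 to 0.54 (limma adjusted p from 0.0503 to 0.0612). The other 2 Ptch1 probe sets gave 0.08 and 0.32 and were not called. The remaining members had mean differences from 0.04 for Smo to 0.31 for Gli2, none called.

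The other genes of the pathway were taken from lists by role, of which 60 of 64 genes were measured. The shares of all genes called, for comparison, were 31.7% in KO lungs and 27.5% in WT lungs after 3 days of hyperoxia, 12.5% between genotypes in hyperoxia and 29% in air, and 21.6% in KO lungs and 22.4% in WT lungs at P4 against P1. Among ligands and genes of ligand release, 2 of 9 were called lower after 3 days of hyperoxia in KO lungs and 0 of 9 by limma in WT lungs, where 0 had an unadjusted p under 0.05. In KO lungs these were Gpc3 (-0.51 ± 0.10), a cell-surface glypican that competes for hedgehog ligand, and Dhh (-0.41 ± 0.12), another ligand gene; in WT lungs they read -0.08 and -0.08. Gpc3 was higher at P4 than at P1 in both genotypes, by 0.50 in KO lungs and 0.69 in WT lungs. Scube2, which helps to release the ligand, was lower at P4 in WT lungs (-0.995 ± 0.13) and not called in KO lungs (-0.28), and Hhat, the ligand's palmitoyl transferase, was 0.35 higher in WT lungs.

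Among receptors and co-receptors, Gpr161, which restrains the pathway in the cilium, was lower after 3 days of hyperoxia in KO lungs (-0.98 ± 0.12, limma adjusted p = 1.06e-07) and WT lungs (-0.74 ± 0.12, limma adjusted p = 1.39e-05), and higher at P4 than at P1 in air in both. The co-receptor gene Cdon was called lower after hyperoxia in WT lungs (-0.75) and not in KO lungs (-0.17), and lower in KO than in WT air lungs (-0.32); the hyperoxia value in WT lungs was -0.38 and not called without the arrays high in other tissues, resting on 1 exposed array. Boc, its relative, was called higher in KO than in WT lungs both in hyperoxia (0.18) and in air (0.14). Lrp2, an endocytic receptor that binds SHH, ran against the members, with 0.77 ± 0.26 in KO lungs and 1.06 ± 0.26 in WT lungs after 3 days of hyperoxia, and -0.62 in hyperoxia and -0.59 in air for KO against WT lungs. With the tissue scores as covariates none of the 3 air calls was kept, Boc giving 0.15 (limma adjusted p = 0.0886), Cdon -0.15 (limma adjusted p = 0.314) and Lrp2 -0.46 (limma adjusted p = 0.0689).

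In the cytoplasm list of 18 measured genes, 1 was called higher and 7 lower after 3 days of hyperoxia in KO lungs, and 1 higher and 4 lower in WT lungs, 5 of 18 being close to the 27.5% of all genes called there. Called lower in both were Evc (-0.67 in KO and -0.61 in WT lungs), which couples SMO to the GLI proteins at the cilium, Arrb1 (-0.75 and -0.77), an arrestin, and Sufu (-0.31 and -0.40), the main brake on the GLI proteins. Kif7 (-0.44), Csnk1e (-0.30), Gsk3b (-0.32) and Gnas (-0.17) were called lower in KO lungs, Prkaca (-0.42) in WT lungs, and Cul3 was called higher in both (0.23 in KO and 0.27 in WT lungs). Sufu was also higher in KO than in WT lungs, by 0.21 ± 0.06 in hyperoxia (limma adjusted p = 0.0147) and 0.28 ± 0.05 in air (limma adjusted p = 0.000124), as were Arrb1 (0.45 and 0.33), Prkacb (0.21 and 0.22), Prkar1a (0.14 and 0.10) and Gnas (0.12 and 0.13). Csnk1d was lower in KO lungs in both (-0.19 in hyperoxia and -0.25 in air), and Kif7 was higher (0.21), Prkaca lower (-0.25) and Stk36 lower (-0.35) in air. With the tissue covariates the air calls of Gnas, Prkaca, Prkacb, Prkar1a and Stk36 were lost (limma adjusted p from 0.0531 to 0.421), as were the hyperoxia calls of Prkar1a and Sufu (0.0544 and 0.0623). The hyperoxia calls of Csnk1d and Prkar1a were lost without the arrays high in other tissues (0.0719 and 0.187). Stk36 fell between P1 and P4 in KO lungs (-1.34) and WT lungs (-1.41), and Evc rose in both (0.79 and 1.12); Evc2 (0.25), Prkacb (0.25), Cul3 (-0.31) and Spop (-0.26) were called at P4 in WT lungs and Prkar1a (0.28) in KO lungs. All 4 of these WT calls were lost without the arrays high in other tissues (limma adjusted p from 0.0875 to 0.366), where WT air P1 rests on 1 array.

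Of 9 measured cilium genes, 1 was called lower after 3 days of hyperoxia in KO lungs and 2 in WT lungs, shares of 11.1% and 22.2%, where 14.7% and 12.5% of all genes were called lower. Ift122, of the retrograde transport complex, was called lower in both (-0.36 in KO and -0.31 in WT lungs), and Tulp3, an adaptor for GPR161, in WT lungs (-0.31). Ift122 was also lower in KO than in WT lungs, by -0.27 ± 0.07 in hyperoxia and -0.48 ± 0.06 in air (limma adjusted p = 2.43e-07), as was Tulp3 (-0.16 and -0.20). Rab23 was lower in KO air lungs (-0.21), and Kif3a was higher in KO lungs in hyperoxia (0.19). The Rab23 call was lost with the tissue covariates (limma adjusted p = 0.373), and that of Kif3a without the arrays high in other tissues (limma adjusted p = 0.0552). At P4 against P1, Tulp3 was higher in KO lungs (0.41) and WT lungs (0.43), and Ift122 in WT lungs (0.36).

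The target list held 19 measured genes, most of them markers of lung mesenchyme. It does not separate genes that the pathway raises from genes that it lowers. Its counts and medians therefore give no direction of pathway activity. After 3 days of hyperoxia 4 were called higher and 7 lower in KO lungs, and 2 higher and 6 lower in WT lungs, the median of the list being -0.18 in KO and -0.06 in WT lungs and that of all genes 0.04 and -0.03. The mesenchymal ligand gene Wnt5a was lower by the same amount in both (-1.25 ± 0.22 each; limma adjusted p = 3.33e-05 in KO and 4.04e-05 in WT lungs). Wnt2, another ligand of the mesenchyme, was -1.19 ± 0.19 in KO and -0.86 ± 0.19 in WT lungs, and the forkhead gene Foxf2 -0.97 ± 0.23 and -0.95 ± 0.23. Tcf21 (-0.65 and -0.86) and Pdgfra (-0.62 and -0.996), both genes of lung fibroblasts, were called lower in both. Tgfb3 (-0.57) and Foxf1 (-0.44) were called lower in KO lungs and Fgf10 (-0.50) in WT lungs. The cyclin gene Ccnd1 (0.69 in KO and 0.87 in WT lungs) and Hsd11b1 (0.70 and 0.62), of glucocorticoid activation, were called higher in both, and Ccnd2 (0.29) and Osr1 (0.77) in KO lungs. The WT count without the arrays high in other tissues was 2 higher and 4 lower, with Foxf2 at -0.85 and Fgf10 at -0.47 no longer called. Over all lists 7 of the 18 WT calls were lost there, the others being Ift122, Tulp3, Prkaca, Cul3 and Cdon. These values rest on 1 exposed array. With the tissue covariates the WT calls of Ift122 and Prkaca were lost (limma adjusted p = 0.134 and 0.0736). When only the arrays of the comparison were fitted, 8 of the 24 KO calls over all lists were lost, those of Foxf1, Pdgfra, Tgfb3, Ccnd2, Sufu, Gsk3b, Gnas and Cul3. In WT lungs those of Ift122 and Tulp3 were lost. All 3 of Ptch1, Gli1 and Hhip, described above, are targets as well, and only Gli1 among them was not called lower.

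Between the genotypes, the targets called higher in KO lungs in hyperoxia were Wnt2 (0.78 ± 0.11, limma adjusted p = 9.36e-06), Tcf21 (0.38), Foxf2 (0.43) and Foxl1 (0.23), and Igf1 was called lower (-0.39); the list had 4 called higher and 1 lower of 19, or 26.3%, where 12.5% of all genes were called. Without the arrays high in other tissues, with WT O2 P4 resting on 1 array, Foxf2 was 0.27 (limma adjusted p = 0.212) and Foxl1 0.16 (limma adjusted p = 0.215). Both were also not called when only the arrays of the comparison were fitted, nor was Foxf2 with the tissue covariates (0.28, limma adjusted p = 0.0842). In air Wnt2 (0.59 ± 0.10), Foxf1 (0.23) and Nkx2-1 (0.37) were called higher and Igf1 (-0.38), Pdgfra (-0.39), Bmp4 (-0.20) and Bcl2 (-0.17) lower, 36.8% of the list, where 29% of all genes were called. With the tissue covariates the air calls of Foxf1, Nkx2-1, Pdgfra and Bmp4 were lost (limma adjusted p from 0.104 to 0.295). Over all lists 13 of the 22 air calls were lost. Over the first days in air, 10 of 19 were called higher and 1 lower at P4 in KO lungs and 9 higher and 2 lower in WT lungs, 57.9% in each, where 21.6% and 22.4% of all genes were called. Igf1 (1.52 and 1.44), Wnt5a (1.13 and 1.08), Mycn (1.02 and 1.36), Bmp4 (0.59 and 0.84), Ccnd2 (0.50 and 0.79), Tgfb3 (0.48 and 0.97) and Bcl2 (0.43 and 0.42) were higher at P4 in both KO and WT lungs, Pdgfra (0.75), Wnt2 (0.53) and Fgf10 (0.40) in KO lungs, and Ccnd1 (0.55) and Foxf2 (0.66) in WT lungs. Hsd11b1 was lower in both (-0.50 and -0.63), and Nkx2-1 (-0.80) in WT lungs. Over all lists 9 of the 23 WT calls at P4 were lost without the arrays high in other tissues, those of Foxf2, Nkx2-1, Gpr161, Hhat and Ift122 besides the 4 cytoplasm genes above (limma adjusted p from 0.0805 to 0.366), with P1 resting on 1 array. When only the arrays of the comparison were fitted 5 were lost, those of Evc2, Foxf2, Hhat, Ift122 and Prkacb. Over all 60 other pathway genes, limma called 0 for a genotype difference in the effect of 3 days of hyperoxia, and 7 had an unadjusted p under 0.05.

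Several of these calls rested on single arrays. After 3 days of hyperoxia in KO lungs, calls were lost without KO O2 P4 replicate 1 (Ccnd2, Foxf1, Gnas, Gsk3b, Osr1, Sufu), KO O2 P4 replicate 2 (Cul3, Dhh, Foxf1, Gnas, Ift122, Lrp2, Osr1, Tgfb3), KO O2 P4 replicate 3 (Ccnd2, Lrp2, Pdgfra), KO air P4 replicate 1 (Foxf1, Gnas, Ift122, Osr1, Sufu), KO air P4 replicate 2 (Ccnd2, Cul3, Lrp2, Osr1) or KO air P4 replicate 3 (Foxf1, Gnas, Gsk3b, Ift122, Sufu), with limma adjusted p from 0.0514 for Osr1 to 0.297 for Foxf1. In WT lungs they were lost without WT O2 P4 replicate 1 (Cdon, Ift122, Prkaca, Tulp3), WT O2 P4 replicate 3 (Ift122, Prkaca), WT air P4 replicate 2 (Ift122, Prkaca, Tulp3) or WT air P4 replicate 3 (Cdon, Prkaca), with limma adjusted p from 0.0613 for Prkaca to 0.293 for Ift122. Between genotypes, 7 single arrays ended the hyperoxia call of Foxf2, 3 that of Igf1 and 14 that of Tulp3, and in air 18 that of Cdon, 16 that of Stk36, 9 that of Bmp4, 4 that of Foxf1 and 2 that of Prkar1a. When only the arrays of the comparison were fitted, the air calls of Bmp4, Cdon and Stk36, the hyperoxia call of Tulp3 and the KO call of Prkar1a at P4 were lost (limma adjusted p from 0.0520 to 0.0836). At P4 against P1, 6 ended the KO call of Wnt2, 5 that of Tgfb3, 4 that of Fgf10 and 3 that of Hsd11b1, and in WT lungs 3 each ended those of Evc2 and Foxf2, 2 that of Ift122 and 1 that of Prkacb. Calls after 3 days of hyperoxia that were kept in both genotypes with every array left out in turn were of both directions. Those of Wnt5a, Wnt2, Tcf21, Foxf2, Gpr161, Evc and Arrb1 were lower, and those of Ccnd1 and Hsd11b1 higher.

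**Figure D4:**
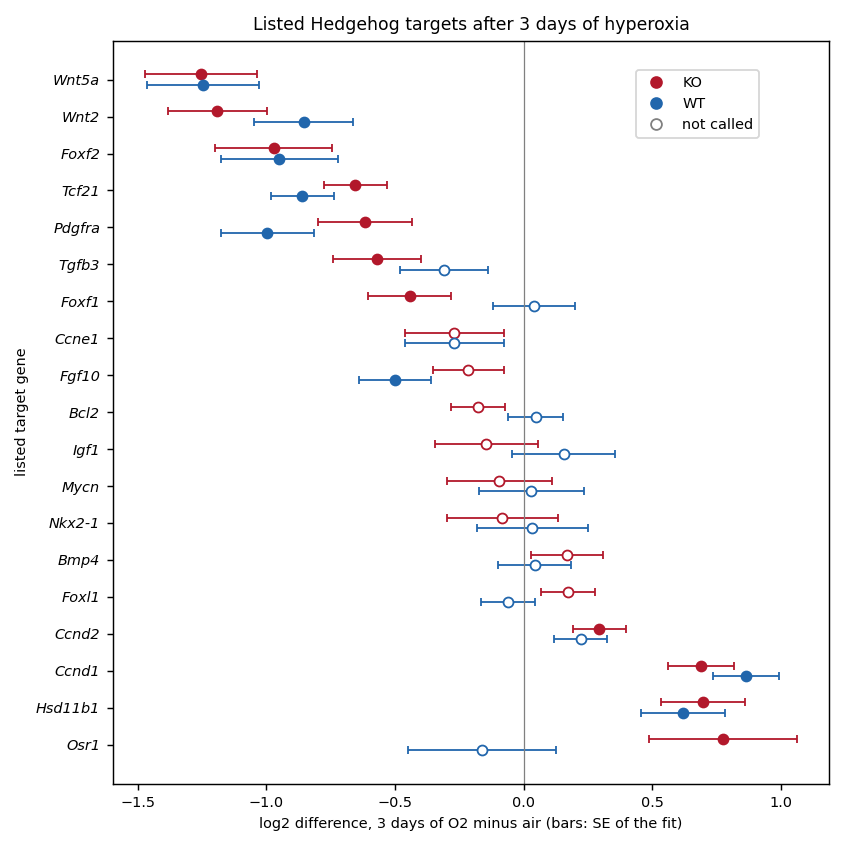
Log2 difference between 3 days of hyperoxia and air (horizontal axis) for the 19 measured genes of the target list, in KO (red) and WT (blue) lungs; bars are the SE of the fit and open dots were not called. Wnt5a, Wnt2, Foxf2, Tcf21 and Pdgfra lay at -0.62 or lower in both genotypes, and Ccnd1 and Hsd11b1 at 0.62 or higher.

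Members with several probe sets were compared across them. After 3 days of hyperoxia the number called lower was 3 of 3 for Gli3, 2 of 3 for Smo, 1 of 4 for Hhip and 1 of 3 for Ptch1 in KO lungs, and 3 of 3 for Gli3, 2 of 3 for Smo, 4 of 4 for Hhip and 2 of 3 for Ptch1 in WT lungs. No probe set of these genes had the opposite sign there. The Smo probe set that was not called read at most 4.57 in any group mean, and its differences were -0.02 in KO and -0.23 in WT lungs. Both Shh probe sets gave differences between -0.20 and -0.23 in both genotypes. Gli1 has no other probe set, so its values have no such check.

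Across the 14 group means the members did not follow a single course. Smo and Gli3 ran most alike (Pearson r = 0.89), followed by Smo and Hhip (0.77), Gli2 and Gli3 (0.76) and Gli3 and Hhip (0.74), whereas Gli1 was near 0 with Gli3 (0.05) and slightly negative with Gli2 (-0.19). Ptch1, lower with Smo, Gli3 and Hhip after 3 days of hyperoxia, was less like them over all groups (0.60, 0.50 and 0.52). These are descriptions over 14 means of groups that share genotype, age and exposure. Among 9153 other genes with a range of group means of at least 0.5, the 3 most like Ptch1 were Fzd7 (0.92), Vgll4 (0.92) and Spice1 (0.91). Those most like Gli1 were Ankrd66 (0.90), Smim10l1 (0.88) and Slc38a10 (0.87), and those most like Shh were Rnf43 (0.87), Taok2 (0.86) and Sox18 (0.81). For Smo they were Nrm (0.97), Tmem132a (0.96) and Tpst1 (0.95), and for Gli3 Mpdz (0.96), Pde5a (0.96) and Macroh2a2 (0.95). For Gli2 they were Col5a1 (0.90), Dsel (0.89) and Zfp9 (0.88). Hhip ran most like the listed target Foxf2 (0.90), followed by Rcn2 (0.87) and Mtss2 (0.86).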

How the data were processed

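RNA of 42 whole mouse lungs, 1 animal per array and 3 per group, was hybridised to Affymetrix 3' expression arrays. The deposited values are log2 signals that the authors made with GCOS and RMA, per the submitters' processing notes (versions not given); RMA corrects background and quantile-normalizes the arrays, which can compress differences of dim probe sets. Of 45101 probe sets, 34958 have 1 gene symbol in GEO's platform annotation, 932 several and 9211 none. Each of 18194 genes was represented by its probe set of highest mean. Groups came from the genotype, exposure and age labels. A linear model of 14 group means (limma 3.58.1 in R 4.3.3; lmFit, contrasts.fit and eBayes, 28 residual degrees of freedom) gave 33 contrasts, with Benjamini-Hochberg adjustment across the genes of each contrast and calls under 0.05. No filter on low values was used. The script was tested on simulated data. Arrays give no depth; 3 arrays per group limit the precision. The members, the pathway and marker lists and the tests were chosen with earlier results of these data known. All 7 members are named whatever their values, other pathway genes where called, and 3 most similar genes per member. Alternatives were scaling, array weights, probe set choice, tissue covariates and arrays left out.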

Additional observations from a re-analysis of the deposited data

Results flagged for a closer look

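The genotypes differed in 5 changes of member genes by the test of the difference itself. The mean effect of hyperoxia on Ptch1 differed by 0.54 between KO and WT lungs (limma adjusted p = 0.0325). In air, the change from P1 to P3 differed for Smo by -0.53 (limma adjusted p = 0.0127), for Ptch1 by -0.76 (limma adjusted p = 0.0254), for Gli1 by -0.70 (limma adjusted p = 0.0459) and for Shh by -0.69 (limma adjusted p = 0.0492), where 12.6% of all genes were called. From P1 to P3, Shh changed by -0.43 in KO and 0.25 in WT lungs, Ptch1 by -0.42 and 0.34, Gli1 by -0.43 and 0.27, and Smo by 0.15 and 0.68. Probe sets of the same gene did not all give these air calls. For Ptch1 1 of 3 was called, with differences from -0.76 to -0.036, and for Shh 1 of 2, from -0.69 to -0.28. For Smo 2 of 3 were called, from -0.53 to 0.18.

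WT air P1 replicate 1, high in heart muscle markers (a score 2.48 above the median array), touched all 4 air results: without it Smo gave -0.40 (limma adjusted p = 0.0547), Ptch1 -0.54 (limma adjusted p = 0.106), Gli1 -0.52 (limma adjusted p = 0.163) and Shh -0.69 (limma adjusted p = 0.073). Without all arrays high in other tissues they gave -0.54, -0.55, -0.38 and -0.58, none called, with WT air P1 and WT air P3 resting on 1 array each, assumed to vary like the other groups. Other single arrays ended the calls of Ptch1 (WT air P3 replicates 1 and 2, KO air P1 replicate 2, KO air P3 replicate 2; limma adjusted p from 0.0502 to 0.0695), of Gli1 (each array of WT air P3 and KO air P3, and KO air P1 replicates 1 and 2; 0.0567 to 0.139) and of Shh (WT air P1 replicates 2 and 3, each array of WT air P3, KO air P1 replicates 2 and 3, KO air P3 replicates 2 and 3; 0.0722 to 0.142). The part of the other tissues in these results was not tested.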

How the results depend on the processing

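The 21 member calls of the main comparisons were recomputed under alternatives that gave 422 values: 377 kept direction and call, 43 lost the call and 2 reversed. Alternatives on single ages and days and on the other pathway genes were chosen after seeing the data. The mean air difference and other contrasts with WT air P2 could not be run without the arrays high in other tissues. Where no cause is given, the cause was not tested.

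Genes called at P4 against P1 in WT air numbered 4083, 6381 with array weights and 2388 without the arrays high in other tissues. For KO against WT in air, 2 members became 5 with array weights, and 5271 genes became 2975 with the tissue covariates. After 3 days of hyperoxia in WT lungs, 5010 genes became 2337 without the arrays high in other tissues and 5 members became 3 with the second-brightest probe set; in KO lungs 4 members became 2 with that probe set. For KO against WT in hyperoxia, 2270 genes became 4530 with array weights. For the genotype difference in the 3-day effect, 102 genes became 192 with cyclic loess, 788 with array weights, 48 with the contrast's arrays only and 39 without the arrays high in other tissues, and 0 members became 1 with covariates.

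With 1 array left out, called members numbered 2 to 3 for KO against WT in hyperoxia, 2 to 3 in air, 2 to 4 after 3 days of hyperoxia in KO and 4 to 5 in WT lungs, 4 to 4 at P4 in KO and 2 to 4 in WT air, and 0 to 0 for the genotype difference. Genes called numbered 1654 to 2247, 4513 to 5438, 4493 to 5741, 3834 to 4647, 3065 to 3384, 3217 to 3772 and 36 to 409 in the same order.

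Signs reversed in another probe set for Smo at P2 (-0.12) and P3 (-0.19) in WT air, at P4 in KO air (-0.12), after 1 day of hyperoxia in KO lungs (-0.19), for 3 days against 1 day in KO lungs (0.043) and in the genotype differences (0.21 for 3-day hyperoxia, 0.18 for P1 to P3). They reversed likewise for Ptch1 at P4 in KO air (0.018 and 0.091) and WT air (-0.092) and between genotypes in air (0.15 at P3, 0.27 for the mean, 0.0058 for the mean of its probe sets), for Gli2 between genotypes in air (0.0065) and in the genotype difference (-0.014), and for Gli3 between genotypes in air (0.013 at P2, 0.0096 for the mean) and in hyperoxia (-0.0029) and after 2 days in WT lungs (0.0032). The Shh genotype difference after 3 days, near 0, gave -0.0082 with loess, -0.045 with array weights, -0.0032 and -0.0071 with its other probe set, averaged and alone, -0.25 without the arrays high in other tissues and -0.17 to 0.21 with 1 array left out.

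Array weights gave -0.026 for Gli1 at P4 in WT air, -0.0040 for Gli1 after 3 days in KO lungs, -0.061 for Hhip between genotypes in air and -0.0053 for Gli2 in hyperoxia. Covariates gave -0.087 for that Hhip value, -0.032 for Gli2 after 1 day in KO lungs, and -1e-04 for Smo and -0.063 for Gli2 between genotypes in hyperoxia. Without the arrays high in other tissues, Gli1 at P4 in WT air was -0.10, Shh after 3 days in WT lungs 0.023, and Gli2 and Gli3 between genotypes in hyperoxia -0.068 and -0.016. With 1 array left out, values near 0 crossed it for Ptch1 (-0.056 to 0.29) and Gli1 (-0.070 to 0.22) at P4 in WT air, Shh at P4 in KO air (-0.056 to 0.11), Hhip between genotypes in air (-0.0016 to 0.096), Gli1 (-0.088 to 0.11) and Gli2 (-0.078 to 0.039) after 3 days in KO lungs, and Gli2 between genotypes in hyperoxia (-0.0085 to 0.065).

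With the replicate number as a block, 0 of 49 member values of the main comparisons and 1 of 38 others changed their call, Smo over the mean of 1 to 3 days in WT lungs (-0.16, limma adjusted p = 0.0558), and members called for KO against WT after 3 days of hyperoxia numbered 2, against 1 without the block. The numbers did not pair the arrays: over 273 same-number pairs the median correlation of deviations was 0.012, and 13 of 42 arrays correlated best with their own number.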
